A study of Rattus norvegicus with 13 samples.

Results

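The tumour suppressor p53 is a transcription factor that responds to DNA damage and other stress, and its targets arrest the cell cycle, remove damaged cells or switch p53 off again. In all, 10 genes of this network were examined in cultured rat lenses, namely Cdkn1a, Mdm2, Ccng1, Phlda3, Plk2, Bax, Bbc3 and the Gadd45 family with its members Gadd45a, Gadd45b and Gadd45g. They were chosen by name, and the probe set with the highest mean signal stood for each gene. Of these 10 genes, 8 had a probe set annotated to that gene alone, among 18166 genes in all. These 8 genes passed the signal minimum, a log2 signal of 5 in at least 1 array, which left 6778 genes for the tests.

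p53 is held low by Mdm2, the ubiquitin ligase that it also induces, and acetylation by p300/CBP and Tip60 changes its activity. The 3 Gadd45 proteins are small stress-induced proteins that bind the kinase MTK1 and act upstream of p38 and JNK. Gadd45a is a classical p53 target, whereas Gadd45b and Gadd45g are mainly induced by other signals such as NF-kB and cytokines. In the lens, a single layer of epithelium divides and supplies the fibre cells, which leave the cell cycle as they differentiate.

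The lenses came from Sprague Dawley rats and were cultured whole, so each array held epithelium and fibre cells together. The control lens was cultured without galactose for 4 days (n = 1), and other lenses were kept in 30 mM galactose for 4 days (galactose Day 4, n = 3) or 6 days (galactose Day 6, n = 3). Galactose is reduced to a sugar alcohol in the lens and clouds it, which serves as a model of diabetic cataract. Each of 6 further lenses was kept in 30 mM galactose for 6 days in all, and histone acetyltransferase (HAT) inhibitors were added once the lens had turned cloudy, so they were present for the later part of the culture only. These were 40 µM C646 and 10 µM CBP30, which both target p300, 80 µM CPTH2, which targets Gcn5, 50 µM TH1834, which targets Tip60, and the combinations C646+CPTH2 and CBP30+CPTH2 (n = 1 each). The title of the last sample names CBP30 and CPTH2, whereas its source label names CPTH2 at both doses, and the title was followed. Nothing in the labels ties an array to an animal, so p-values measure the spread between these samples only. That spread comes from the galactose Day 4 and galactose Day 6 groups alone, as each other group has 1 array. The control lens was in culture for 4 days and galactose Day 6 for 6 days, so galactose and time cannot be told apart in that comparison. The labels do not say whether the galactose Day 6 lenses received the solvent of the inhibitors. The study treated 1 lens of a rat with inhibitor and gave the other DMSO alone. Whether any of these arrays came from such a pair is not in the labels.

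The promoter windows of the genes on which the results turn are shown first. Each window holds 250 bases before and 50 bases after an annotated transcription start in RefSeq on the rat build GRCr8, and 8 of the 10 genes were found in that table. Capitals mark the motifs found on either strand, which are the p53 half-site, the E-box CACGTG, the cAMP response element TGACGTCA and the TATA box TATAAA, and in Mdm2 the CCAAT box (CCAAT) and the GC box (GGGCGG). The Cdkn1a window is chr20:7150682-7150981 (plus strand), the Mdm2 window chr7:55200742-55201041 (minus strand), the Gadd45g window chr17:13530302-13530601 (minus strand) and the Plk2 window chr2:43702286-43702585 (plus strand).
Cdkn1a: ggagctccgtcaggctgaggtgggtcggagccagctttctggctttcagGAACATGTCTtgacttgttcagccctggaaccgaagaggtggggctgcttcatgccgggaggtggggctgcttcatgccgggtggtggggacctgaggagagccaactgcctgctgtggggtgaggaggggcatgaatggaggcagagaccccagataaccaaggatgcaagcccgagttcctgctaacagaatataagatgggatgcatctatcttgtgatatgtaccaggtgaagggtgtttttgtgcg
Mdm2: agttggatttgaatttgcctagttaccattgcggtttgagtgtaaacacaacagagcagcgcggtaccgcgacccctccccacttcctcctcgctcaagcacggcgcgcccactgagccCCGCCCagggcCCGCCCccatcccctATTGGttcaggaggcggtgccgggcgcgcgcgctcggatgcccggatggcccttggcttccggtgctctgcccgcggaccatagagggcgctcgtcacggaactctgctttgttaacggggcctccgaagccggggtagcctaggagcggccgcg
Gadd45g: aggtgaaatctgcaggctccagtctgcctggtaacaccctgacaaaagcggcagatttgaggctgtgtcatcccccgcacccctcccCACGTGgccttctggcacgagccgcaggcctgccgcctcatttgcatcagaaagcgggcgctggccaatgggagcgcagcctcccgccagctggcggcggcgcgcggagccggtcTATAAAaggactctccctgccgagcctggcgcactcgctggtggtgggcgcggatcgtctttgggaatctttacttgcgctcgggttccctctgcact
Plk2: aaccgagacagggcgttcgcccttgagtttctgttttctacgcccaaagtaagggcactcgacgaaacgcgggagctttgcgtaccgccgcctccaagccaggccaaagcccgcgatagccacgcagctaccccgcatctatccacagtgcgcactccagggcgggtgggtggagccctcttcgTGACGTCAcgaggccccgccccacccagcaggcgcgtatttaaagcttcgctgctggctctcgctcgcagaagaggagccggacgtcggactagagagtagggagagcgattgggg

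In Cdkn1a the p53 half-site GAACATGTCT lay between -201 and -192 from the start. A p53 half-site was also found in the windows of Gadd45a and Ccng1, and 7.98% of 33469 RefSeq windows of this length hold one. Mdm2 held none in this window, and sequence outside the windows was not searched for any gene. The E-box was found in Gadd45g at -163 to -158 and in Gadd45b, against 6.42% of all windows. The TATA box of Gadd45g was at -48 to -43, and 14.2% of all windows hold these letters. Plk2 held the cAMP response element at -66 to -59, a motif of 1.83% of all windows. The CCAAT box was found in 6 of 8 windows against 37.5% of all, and the GC box in 6 of 8 against 33.1%. A match is a description of the sequence and was not tested as a binding site.

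The tissue label was checked against marker genes. The 10 crystallins measured had a mean log2 signal of 12.16 in the control and the other arrays ranged from 11.86 to 12.31, and none of the photoreceptor and endothelial markers passed the signal minimum. Of 3 smooth muscle markers Des alone passed, with 6.23 in the control and 3.54 to 4.26 in the 6 galactose arrays, and it was called lower on both days (-2.59 and -2.25, limma adjusted p = 0.00152 and 0.00249). Of 8 macrophage and immune markers 2 passed. Lyz2 read 5.05 in the control and 2.91 to 3.77 in galactose Day 4, where it was called lower (-1.68, limma adjusted p = 0.0447), and Cd68 was not called on either day. Des and Lyz2 reached the minimum in the control array only, so their calls are a description. For 9 lens epithelium markers the mean was 7.21 in the control and between 5.54 and 6.51 in galactose, 4.93 in C646+CPTH2 and 6.70 in TH1834. The lowest galactose means were those of replicate 1, with 5.54 on Day 4 and 5.78 on Day 6. Of these 9, Aqp1, Foxe3, Pdgfra and Six3 were called lower in galactose on both days, and on Day 4 Aqp1 fell by 2.51 on the log2 scale. The rest of the 9 were not called, and 1 of the 9 differences was positive on Day 4 and 2 on Day 6. In whole lenses, fewer cells of a type and less RNA per cell cannot be told apart, and the part of these cell types in the results below was not tested. Between 15.1 and 18.1% of the values of an array recurred exactly in another array.

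Galactose was compared with the control first. Gadd45g and Cdkn1a were higher, Gadd45g on both days and Cdkn1a on Day 6, and no member was lower past the test. Gadd45g passed the signal minimum only through arrays with galactose, so its calls are given as a description. The limma test across all genes called 1 of 8 members on Day 4, where 3.78% of the 6778 genes were called, and 2 of 8 on Day 6, where 5.49% were called. At an unadjusted p under 0.05 there were 4 of 8 members on Day 4, against 1488 of 6778 genes, and 3 of 8 on Day 6, against 1606 of 6778. Both days shared the single control array, and Cdkn1a, Mdm2, Gadd45a, Gadd45g and Ccng1 are among genes that the study listed from these arrays, so their directions are not independent evidence.

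**Figure D1:**
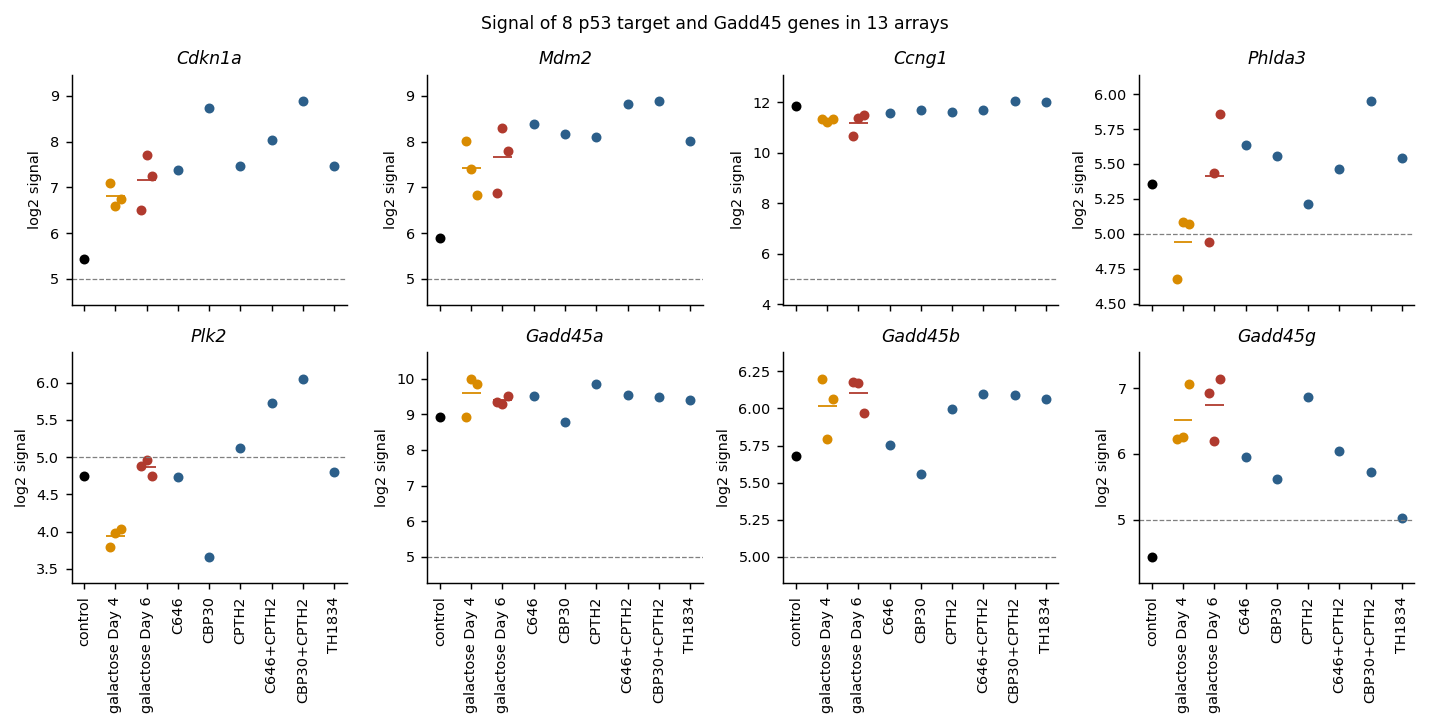
Log2 signal (y axis) of 8 genes in each of 13 arrays, grouped by culture (x axis). Each point is 1 array, short lines are group means, the dashed line is the signal minimum of 5, and axes differ between genes. Cdkn1a and Mdm2 are lowest in the control, Gadd45g is below 5 only there, and Plk2 is above 5 only in the 3 arrays with CPTH2.

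Cdkn1a encodes p21, the inhibitor of cyclin-dependent kinases that carries out the p53-dependent arrest. Its log2 signal was 5.42 in the control, 7.08, 6.60 and 6.75 in galactose Day 4 and 6.51, 7.70 and 7.24 in galactose Day 6. All 6 galactose arrays were above the control. The log2 difference from the control was 1.73 on Day 6 (SE 0.40, limma adjusted p = 0.0438), a 3.31-fold difference, and 1.39 on Day 4 (SE 0.40, limma adjusted p = 0.0887). The Day 6 call was lost without Day 4 replicate 2 (limma adjusted p = 0.0753), Day 4 replicate 3 (0.0741), Day 6 replicate 2 (0.0851) or Day 6 replicate 3 (0.0971), and Day 4 passed without Day 6 replicate 1 (0.0386). Without the signal filter the Day 6 call was lost too (limma adjusted p = 0.101).

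Mdm2 had a log2 signal of 5.89 in the control, 8.02, 7.39 and 6.84 in galactose Day 4 and 6.87, 8.31 and 7.79 in galactose Day 6. The control was again below all 6 galactose arrays, but the galactose arrays were spread over more than 1 log2 unit on each day. The log2 difference was 1.53 on Day 4 (SE 0.54, limma adjusted p = 0.141) and 1.77 on Day 6 (SE 0.54, limma adjusted p = 0.0917), so neither passed. Without Day 6 replicate 1 the Day 6 difference was 2.16 and passed (limma adjusted p = 0.0440). Over the 13 arrays Cdkn1a and Mdm2 had a Pearson r of 0.886 (Spearman 0.886), and r was 0.809 over the 12 arrays in galactose. This is a description over arrays that share a scale and 1 control.

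Gadd45g was the member with the largest difference from the control on both days. The control read 4.44 in log2 signal, against 6.23, 6.25 and 7.06 in galactose Day 4 and 6.92, 6.20 and 7.13 in galactose Day 6. The groups did not overlap, although the control lay below the signal minimum, so the sizes are not exact. Gadd45g passed that minimum only through the 12 arrays with galactose, with or without an inhibitor. Its entry into the test thus depended on arrays in which it was then tested as higher, and its calls are a description. The log2 difference was 2.07 on Day 4 (SE 0.42, limma adjusted p = 0.0354) and 2.31 on Day 6 (SE 0.42, limma adjusted p = 0.0198). The Day 4 call was lost without Day 4 replicate 2 (limma adjusted p = 0.0716), Day 4 replicate 3 (0.0707) or Day 6 replicate 3 (0.0507), and the Day 6 call without Day 6 replicate 3 (0.0513). Without the signal filter Day 4 did not pass (limma adjusted p = 0.0840), whereas Day 6 did.

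The other members of the family did not pass. Gadd45a had a log2 signal of 8.92 in the control, 8.93, 9.99 and 9.84 in galactose Day 4 and 9.35, 9.30 and 9.51 in galactose Day 6. Its lowest galactose array differed from the control by less than the spread of its own group, and the log2 differences were 0.67 (SE 0.37, limma adjusted p = 0.337) and 0.47 (SE 0.37, limma adjusted p = 0.487). Gadd45b read 5.68 in the control, whereas the 6 galactose arrays read 5.79 to 6.20, with log2 differences of 0.34 and 0.43 (SE 0.23, limma adjusted p = 0.441 and 0.303).

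Ccng1 encodes cyclin G1, a p53 target that directs the phosphatase PP2A to Mdm2. The control read 11.86 in log2 signal, against 11.32, 11.20 and 11.33 in galactose Day 4 and 10.68, 11.36 and 11.48 in galactose Day 6. The control was the highest of these arrays, in contrast to Cdkn1a and Mdm2, with log2 differences of -0.57 (SE 0.31, limma adjusted p = 0.316) and -0.69 (SE 0.31, limma adjusted p = 0.213). Without Day 6 replicate 1, its lowest array, the Day 6 difference was -0.44 (limma adjusted p = 0.204). Phlda3, a p53 target that competes with Akt for membrane lipids, was 5.36 in the control, 4.68 to 5.09 in galactose Day 4 and 4.94 to 5.86 in galactose Day 6. Its log2 differences were -0.42 and 0.05 (SE 0.34, limma adjusted p = 0.523 and 0.945).

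**Figure D2:**
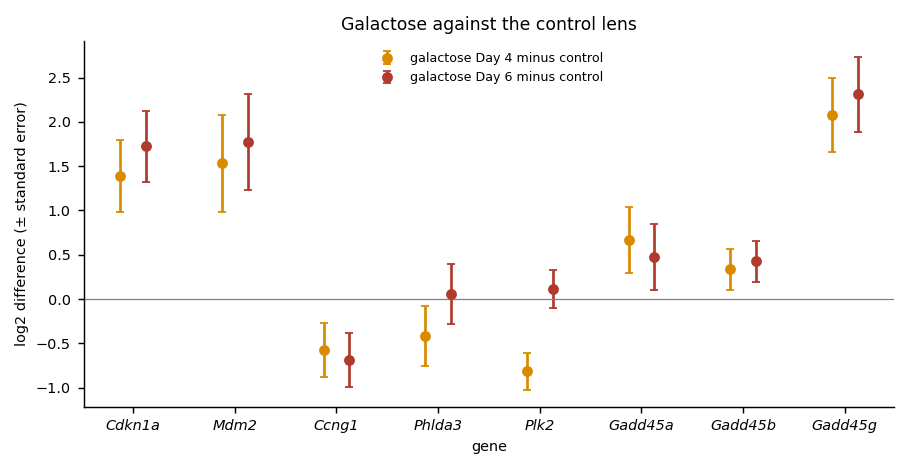
Log2 difference from the control lens (y axis) for 8 genes (x axis) in galactose Day 4 (orange) and galactose Day 6 (red), with the standard error of the limma fit. Gadd45g is highest at 2.07 and 2.31, and Ccng1 lies below 0 on both days.

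Plk2, a polo-like kinase that p53 and growth factors induce, was the member that differed most between the days. Its log2 signal was 4.75 in the control, 3.79, 3.98 and 4.04 in galactose Day 4 and 4.88, 4.96 and 4.75 in galactose Day 6. The groups of the 2 days did not overlap, but all of these values were under 5, where a signal need not be above background. The difference of Day 6 from Day 4 was 0.93 (SE 0.15, unadjusted p = 0.000155, limma adjusted p = 0.582). In that comparison limma called 0 of 8 members and 0% of all genes, with 1 member and 363 genes at an unadjusted p under 0.05. The difference of Day 4 from the control was -0.81 (SE 0.21, limma adjusted p = 0.0666).

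Bax and Bbc3 encode proteins that promote apoptosis through the mitochondrion. Both probe sets of Bax are annotated to LOC681314 as well, so no value was assigned to Bax. The brighter of them read 5.74 in the control, between 5.43 and 5.81 with galactose alone, 6.42 in CBP30 and 6.09 in CPTH2, but 5.52 in CBP30+CPTH2 and 5.71 to 5.92 in the other 3 treatments. No probe set annotated to Bbc3 was used here.

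The wider network was described by lists. Of 19 genes that passed the signal minimum from a list of other p53 targets, 5 were called higher on each day. None of this list was called lower. Over all 6778 genes, 158 were called higher on Day 4 and 190 on Day 6. The 4 listed targets with the largest differences were Atf3, Gdf15, Plk3 and Tp53inp1. Atf3, a stress-induced transcription factor, was higher by 3.12 on Day 4 and 3.37 on Day 6 on the log2 scale (SE 0.30, limma adjusted p = 0.00173 and 0.00119). Gdf15, a secreted stress cytokine, was higher by 2.85 and 2.71, Plk3, a polo-like kinase, by 1.93 and 2.77, and Tp53inp1, which promotes p53 activity, by 1.62 and 1.64. The median log2 difference of the 19 was 0.27 on Day 4 and 0.18 on Day 6, against 0.05 and -0.01 over all genes. Atf3 and Plk3 read 3.82 and 3.14 in the control and passed the minimum only through arrays with galactose. The list was written with earlier results of these data known, so its count and median are a description. Of 8 regulators of p53 that passed the minimum, the phosphatase gene Ppm1d was called lower on both days, by -1.18 and -1.14 (SE 0.27, limma adjusted p = 0.0499 and 0.0459), and the other 7 were not called. These regulators were counted apart from the targets, although a regulator can also be a target, as Mdm2 is. The direction of the target list thus depends on how the lists were split. No gene of the 5 acetyltransferases of p53 or the 5 G1 cyclins and kinases that passed the minimum was called. Of 24 cell cycle genes repressed by p53, 4 passed the minimum and none was called. All 4 differences were positive, with a median of 0.70 on Day 4 and 1.01 on Day 6. Of these 4, Aurkb, Mki67 and Ccne2 read 3.94, 4.28 and 3.50 in the control. They passed the minimum only through arrays with galactose, which favours positive differences, so the shared sign is a description.

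Of 2 further inhibitors of cyclin-dependent kinases that passed the minimum, Cdkn1c, which encodes p57 and is known for the exit of lens fibre cells from the cycle, went the opposite way to Cdkn1a. The control array read 8.45, the galactose Day 4 arrays 7.13 to 7.46 and the galactose Day 6 arrays 6.52 to 6.81 (log2 signal). Cdkn1c fell by 1.20 on Day 4 and fell by 1.79 on Day 6 (SE 0.23, limma adjusted p = 0.0287 and 0.00473). Among genes of apoptosis, the caspase gene Casp6 was higher by 1.93 and 1.499 (SE 0.28, limma adjusted p = 0.0112 and 0.0231), 1 of 2 caspases that passed the minimum among 6 with a probe set. Casp6 read 2.91 in the control, 4.41 to 5.06 in galactose Day 4 and 4.27 to 4.49 in galactose Day 6. It passed the minimum only through galactose Day 4 arrays, where it was then called higher, so its calls are a description. Of 7 genes of the Bcl2 family that passed the minimum, Bcl2l1, which encodes the survival protein Bcl-xL, was called on Day 6, with a log2 difference of 0.96 (SE 0.22, limma adjusted p = 0.0415). Of 2 relatives of Plk2 and Phlda3 that passed the minimum, Plk3 was higher and Plk5 lower, by -1.59 and -1.48 (SE 0.20, limma adjusted p = 0.00551 and 0.00709). Plk5 reached the minimum in the control array only, at 5.21. Plk3 read 3.14 in the control and passed only through arrays with galactose. Both entered the test through arrays in which they were then called higher, so these calls are a description.

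Next, each inhibitor array was compared with galactose Day 6. Each treatment had 1 array, which was assumed to vary like the galactose groups, and no member passed the test. In limma 0 of 8 members were called in any of the 6 comparisons, where the share of all genes called was 0% for C646, 0% for CBP30, 0.0295% for CPTH2, 0.856% for C646+CPTH2, 0% for CBP30+CPTH2 and 0.059% for TH1834. At an unadjusted p under 0.05 there were 0 members for C646, 4 for CBP30, 0 for CPTH2, 1 for C646+CPTH2, 4 for CBP30+CPTH2 and 2 for TH1834. Over the 6778 genes the same counts were 275, 1072, 861, 1118, 1408 and 946. The median over all genes was shifted by 0.17 in CPTH2, 0.15 in CBP30+CPTH2 and 0.11 in TH1834, so differences in these arrays are to be read against that shift. All 6 comparisons share the galactose Day 6 arrays.

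Cdkn1a was highest in the arrays with CBP30. Its log2 signal was 7.38 in C646, 8.73 in CBP30, 7.47 in CPTH2, 8.04 in C646+CPTH2, 8.88 in CBP30+CPTH2 and 7.47 in TH1834. The 2 arrays with CBP30 and C646+CPTH2 were above all 6 galactose arrays, whereas the other 3 were within their range. The log2 difference from galactose Day 6 was 1.58 for CBP30 (95% interval 0.67 to 2.49, limma adjusted p = 0.143) and 1.73 for CBP30+CPTH2 (95% interval 0.83 to 2.64, limma adjusted p = 0.0996).

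Mdm2 had a log2 signal of 8.39 in C646, 8.16 in CBP30, 8.10 in CPTH2, 8.82 in C646+CPTH2, 8.88 in CBP30+CPTH2 and 8.02 in TH1834. Both combinations and C646 were above all 6 galactose arrays. The log2 differences from galactose Day 6 were 0.36 to 1.23, and the highest was that of CBP30+CPTH2 (95% interval -0.0039 to 2.46, limma adjusted p = 0.242).

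Ccng1 had a log2 signal of 11.58 in C646, 11.68 in CBP30, 11.60 in CPTH2, 11.68 in C646+CPTH2, 12.04 in CBP30+CPTH2 and 11.99 in TH1834. All 6 were above all 6 galactose arrays, the only member for which these arrays did not overlap, against 2.91% of all genes in either direction. The highest log2 differences from galactose Day 6 were 0.87 in CBP30+CPTH2 (limma adjusted p = 0.168) and 0.82 in TH1834 (limma adjusted p = 0.299).

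Gadd45g had a log2 signal of 5.96 in C646, 5.62 in CBP30, 6.87 in CPTH2, 6.05 in C646+CPTH2, 5.73 in CBP30+CPTH2 and 5.03 in TH1834. All but CPTH2 were below the lowest galactose array, which read 6.20, and all 6 stayed above the control. The log2 difference from galactose Day 6 was -1.72 in TH1834 (95% interval -2.66 to -0.77, limma adjusted p = 0.201), -1.13 in CBP30 (limma adjusted p = 0.252) and -1.02 in CBP30+CPTH2 (limma adjusted p = 0.213). CPTH2 alone was the exception, with 0.12, a sign that turned when the arrays were quantile normalized or centred on their medians.

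**Figure D3:**
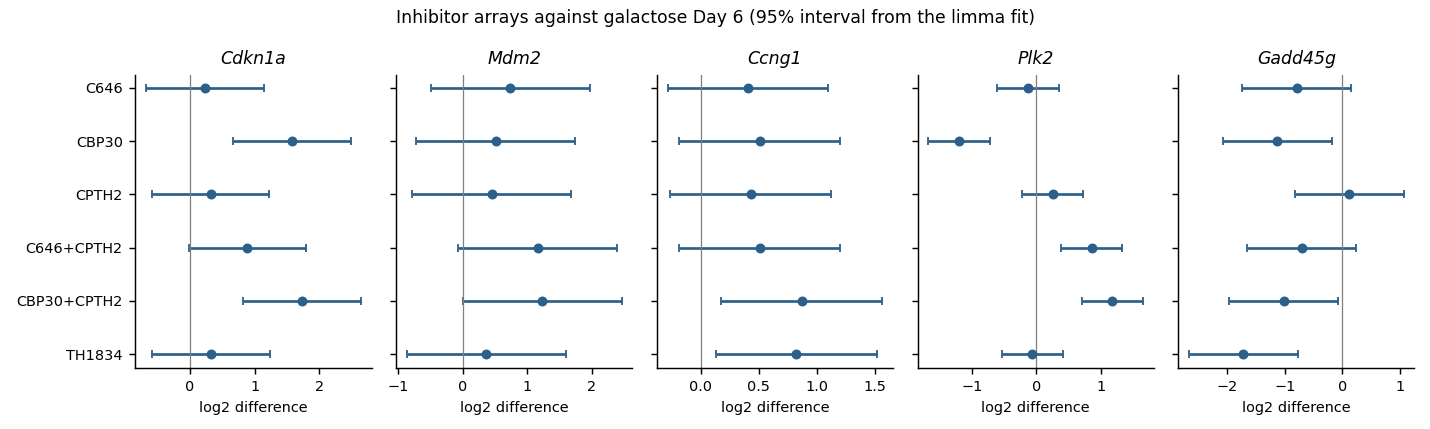
Log2 difference from galactose Day 6 (x axis, scales differ) for 6 inhibitor treatments (y axis) and 5 genes. Points are 1 array each against the mean of 3, and bars are 95% intervals of the limma fit. Cdkn1a is highest in CBP30 and CBP30+CPTH2, and Gadd45g is lowest in TH1834 at -1.72.

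The remaining members moved less. Gadd45a was 8.79 in CBP30, lower than in any other array, and 9.39 to 9.85 in the other 5 treatments. Gadd45b was 5.56 to 6.10 in the 6 treatments, with CBP30 at the bottom of the range (log2 difference -0.55, limma adjusted p = 0.296). Phlda3 was 5.21 to 5.95, and its log2 differences from galactose Day 6 were -0.20 to 0.54.

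Plk2 showed the opposite order in the arrays with and without CPTH2. Its log2 signal was 4.73 in C646, 3.66 in CBP30, 5.12 in CPTH2, 5.72 in C646+CPTH2, 6.05 in CBP30+CPTH2 and 4.80 in TH1834. The 3 arrays with CPTH2 were the only ones of the 13 that reached 5. The log2 difference from galactose Day 6 was -1.20 for CBP30 (limma adjusted p = 0.0832), 0.86 for C646+CPTH2 (limma adjusted p = 0.106) and 1.18 for CBP30+CPTH2 (limma adjusted p = 0.0772).

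The addition of CPTH2 was then compared over 3 backgrounds, which were galactose alone, C646 and CBP30. Plk2 was the only one of 8 members called by limma, where 0.0885% of all genes were called, and no other member was under an unadjusted p of 0.05, against 985 of 6778 genes. Plk2 passed the signal minimum only through the 3 arrays with CPTH2, so its entry into the test depended on the arrays in which it was then tested as higher, and its call is given as a description. CPTH2 added 0.26 to galactose Day 6, 0.99 to C646 and 2.38 to CBP30 on the log2 scale. The mean was 1.21 (SE 0.14, limma adjusted p = 0.0363), which rests on values under 5 on the side without CPTH2. The addition on CBP30 exceeded that on galactose by 2.13 (SE 0.33, unadjusted p = 0.000128, limma adjusted p = 0.193), so a difference between backgrounds did not pass. The call was lost without the CBP30 and CBP30+CPTH2 arrays, where the mean was 0.62 (limma adjusted p = 0.216), and without the C646 and C646+CPTH2 arrays (1.32, limma adjusted p = 0.0815). It was also lost without Day 4 replicate 2 (limma adjusted p = 0.0766) or 3 (0.0677), or without Day 6 replicate 1 (0.0641), 2 (0.0890) or 3 (0.106), when the arrays were centred on their medians (0.0527) and without the signal filter (0.107).

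**Figure D4:**
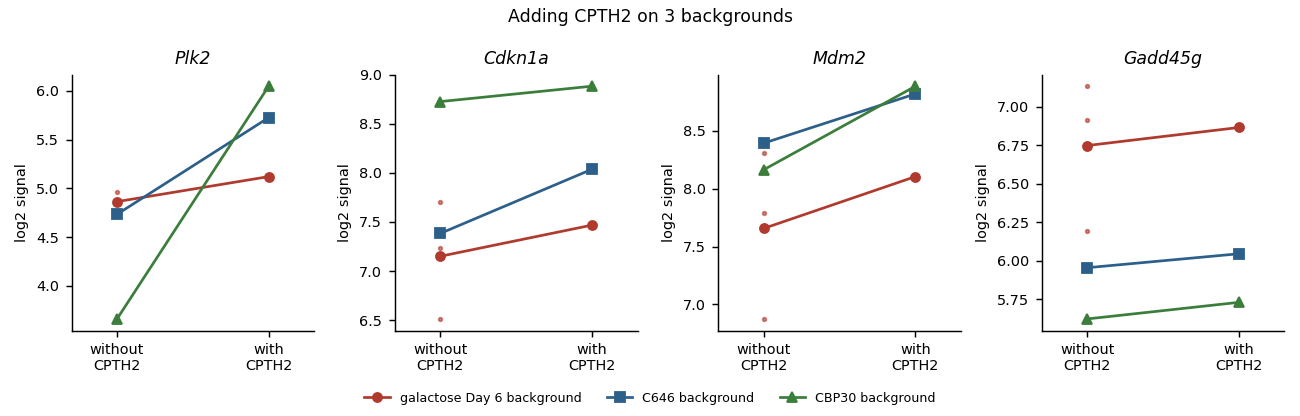
Log2 signal (y axis, scales differ) of 4 genes without and with CPTH2 (x axis) on galactose Day 6 (red circles, mean of 3 arrays shown as dots), C646 (blue squares) and CBP30 (green triangles). The Plk2 lines rise by 0.26, 0.99 and 2.38, and those of Gadd45g are nearly flat.

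The p300 inhibitors were compared with each other over both backgrounds, alone and with CPTH2, at 10 µM CBP30 and 40 µM C646. Doses differed, so the values are given side by side. limma called 0 of 8 members, against 0.133% of all genes, with 1 of 8 members and 1106 of 6778 genes at an unadjusted p under 0.05. That member was Cdkn1a, which read 8.73 and 8.88 with CBP30 and 7.38 and 8.04 with C646, a mean log2 difference of 1.10 (95% interval 0.31 to 1.88, limma adjusted p = 0.210). Mdm2 differed by -0.08 (95% interval -1.15 to 0.99).

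The study described TH1834, C646+CPTH2 and CBP30+CPTH2 as reducing the opacity, and these 3 effective treatments were compared with C646, CBP30 and CPTH2 alone. CPTH2 alone was described as having a slight effect, so that set is not free of one. limma called 0 of 8 members and 0% of all genes, with 1 member and 481 genes at an unadjusted p under 0.05. This member was Plk2, with a log2 difference of 1.02 (95% interval 0.68 to 1.36, unadjusted p = 7.58e-05, limma adjusted p = 0.219). Its effective arrays read 5.72, 6.05 and 4.80 and the others 4.73, 3.66 and 5.12, so the sets overlapped. The interval takes its spread from the galactose replicates, not from the treatments within a set. With the arrays taken as 2 groups of 3, 0 members were called as well. Over all alternatives the highest limma adjusted p of Plk2 was 0.983. The effective set holds 2 of the 3 arrays with CPTH2, through which alone Plk2 passed the signal minimum, and the other set 1, so this difference is a description.

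Over the 13 arrays, the genes most like Cdkn1a among the 6778 were Zc3h13 (Pearson r = 0.924), Fam91a1 (0.922) and Tox4 (0.920). Those most like Mdm2 were Tp53inp1 (0.916), Acbd3 (0.912) and Atp6v1b2 (0.903), and Tp53inp1 is itself one of the p53 targets listed. Those most like Gadd45g were Sbno2 (0.916), A3galt2 (0.893) and Pdlim5 (0.881). These arrays share 1 scale and include the lone control, without which r was 0.840 for Mdm2 with Tp53inp1 and 0.948 for Gadd45g with Sbno2.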

How the data were processed

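RNA from 13 whole lenses was hybridised to GeneChip Rat Gene 2.0 ST arrays. The log2 signals were used as deposited by the authors, who preprocessed the arrays in R. How background, normalization and probe summary were done is not given in the sources used here, and no normalization was added. The number of arrays limits the precision, and no detection flags were used.

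Of 36685 probe sets, 18511 carried 1 gene name in the platform annotation, 575 several and 17599 none. For each gene the probe set with the highest mean was taken, and genes under a log2 signal of 5 in every array were removed. All arrays entered a linear model with a mean for each condition, fitted with limma 3.58.1 (R 4.3.3), two-sided, with Benjamini-Hochberg adjustment over the 6778 genes and a threshold of 0.05. It had 4 residual and 4.97 prior degrees of freedom, so the control and each treatment with 1 array borrowed their spread from the galactose groups. The fit was tested on simulated data in which every array was given the spread of the galactose groups. That could not test the assumption made for groups with 1 array. Promoter windows came from RefSeq (GRCr8).

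All 10 members were named, with up to 4 called genes per list and comparison, and the 3 most correlated genes for Cdkn1a, Mdm2 and Gadd45g. Members and lists were chosen with earlier results of these data known. Alternatives covered the filter, scaling, prior, probe set choice, reference group, spread and each galactose array left out. Leaving out each pair of CPTH2 arrays was added after seeing the data.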

Additional observations from a re-analysis of the deposited data

How the results depend on the processing

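Most values of single members kept their direction and their side of the threshold: of 1352 values under alternatives for 96 differences, 1276 did, 22 lost a call, 6 gained one and 48 changed sign, the last all in differences that were not called. The number of members called on Day 4 against the control went from 1 to 0 without the signal filter and with the spread of Day 4 alone, to 3 without replicate 1 of both days, and over 0 to 2 when single galactose arrays were left out. On Day 6 it went from 2 to 1 without the filter and to 0 with the spread of Day 6 alone, and over 0 to 3 with single arrays left out. For CPTH2 added it went from 1 to 0 without the filter, with median centring, and without the CBP30 pair or the C646 pair, and over 0 to 1 with single arrays left out. For C646+CPTH2 it went from 0 to 1, Plk2, without replicate 1 of both days (limma adjusted p = 0.0491). The cause was not tested. Without replicate 1 of both days, the sign turned for Ccng1 in galactose Day 6 against galactose Day 4 (0.15), Cdkn1a in C646 (-0.086), Phlda3 in C646 (-0.016), Phlda3 in CBP30 (-0.094), Cdkn1a in CPTH2 (-0.0015), Gadd45b in C646+CPTH2 (0.025), Phlda3 in C646+CPTH2 (-0.19), Gadd45b in CBP30+CPTH2 (0.019), Mdm2 in TH1834 (-0.027), Gadd45a in TH1834 (-0.018), Phlda3 in TH1834 (-0.11), Phlda3 in CPTH2 added on 3 backgrounds (-0.0696). With all 6 galactose arrays as the reference, the sign turned for Plk2 in C646 (0.33), Phlda3 in CPTH2 (0.037), Gadd45b in C646+CPTH2 (0.035), Gadd45b in CBP30+CPTH2 (0.029), Gadd45a in TH1834 (-0.098), Plk2 in TH1834 (0.40). With quantile normalization, the sign turned for Gadd45g in CPTH2 (-0.062), Gadd45a in TH1834 (-0.0303), Phlda3 in CPTH2 added on 3 backgrounds (-0.034). With median centring, the sign turned for Gadd45g in CPTH2 (-0.076), Gadd45a in CBP30+CPTH2 (-0.085), Gadd45a in TH1834 (-0.13), Phlda3 in CPTH2 added on 3 backgrounds (-0.067). Without the CBP30 and CBP30+CPTH2 arrays, the sign turned for Phlda3 in CPTH2 added on 3 backgrounds (-0.18). With single galactose arrays left out, signs turned within these ranges: Phlda3 in galactose Day 6 against control -0.17 to 0.29, Mdm2 in galactose Day 6 against galactose Day 4 -0.086 to 0.63, Gadd45a in galactose Day 6 against galactose Day 4 -0.52 to 0.0041, Gadd45b in galactose Day 6 against galactose Day 4 -0.024 to 0.18, Ccng1 in galactose Day 6 against galactose Day 4 -0.27 to 0.14, Cdkn1a in C646 -0.086 to 0.51, Phlda3 in C646 -0.016 to 0.44, Phlda3 in CBP30 -0.094 to 0.37, Cdkn1a in CPTH2 -0.0015 to 0.59, Gadd45g in CPTH2 -0.16 to 0.31, Phlda3 in CPTH2 -0.43 to 0.026, Gadd45b in C646+CPTH2 -0.079 to 0.025, Phlda3 in C646+CPTH2 -0.19 to 0.27, Gadd45b in CBP30+CPTH2 -0.085 to 0.019, Mdm2 in TH1834 -0.027 to 0.69, Gadd45a in TH1834 -0.043 to 0.063, Phlda3 in TH1834 -0.11 to 0.35, Phlda3 in CPTH2 added on 3 backgrounds -0.0696 to 0.084. 

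The labels do not say whether replicate numbers pair the samples. Deviations of same-numbered Day 4 and Day 6 arrays correlated at 0.341, 0.0765 and 0.251, and not every array correlated best with its own number. These values neither show nor exclude a pairing. With the replicate number as a block, 0 members were called between the days, as without it, and Plk2 gave 0.93 (limma adjusted p = 0.270). The lone control and lone treatment arrays have no spread of their own, and signals under 5, which include Plk2 without CPTH2 and Gadd45g in the control, limit the sizes given.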

Other observations

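Of 13 genes known to induce the Gadd45 family that passed the minimum, 1 was called in C646+CPTH2. It was Egr1, an immediate early transcription factor, which was higher, and 5 of the 13 differences were positive. From the separate list of 19 other p53 targets, 2 were called higher in that array, Gdf15 and Plk3. The share of all genes called there was 0.856%. Egr1 was higher than in galactose Day 6 by 1.74 (SE 0.24, limma adjusted p = 0.0192), Gdf15 by 2.94 (SE 0.31, limma adjusted p = 0.00938) and Plk3 by 2.69 (SE 0.41, limma adjusted p = 0.0270), each in 1 array. Plk3 read 8.41 in CPTH2 alone and 8.59 in C646+CPTH2, and Egr1 read 8.38 and 8.98. In CBP30+CPTH2, Plk3 read 5.99, within the range of galactose Day 6, and Egr1 read 6.38, below all galactose Day 6 arrays. Gdf15 read 10.74 in CPTH2 and 11.36 in C646+CPTH2 but 8.21 in CBP30+CPTH2, against 8.29 to 8.62 in galactose Day 6. Over both backgrounds, CBP30 was lower than C646 by -2.30 for Gdf15 (SE 0.27, limma adjusted p = 0.0150) and by -2.06 for Egr1 (SE 0.21, limma adjusted p = 0.0134), while Cdkn1a read higher with CBP30 without passing. Cd68, a macrophage marker, was higher in C646+CPTH2 by 2.75 (SE 0.49, limma adjusted p = 0.0434) and read 5.59 to 7.51 over all 6 treatments, against 4.32 to 5.21 in galactose Day 6. The other macrophage gene that passed the minimum, Lyz2, read 3.45 in C646+CPTH2 and 3.56 to 4.33 in galactose Day 6, and the epithelium marker Sox2 was lower there by -1.82 (SE 0.32, limma adjusted p = 0.0434). Their part in these differences was not tested. Ddit3, a stress gene, was called in galactose Day 4 (1.31, SE 0.30, limma adjusted p = 0.0477) and read 0.55 on Day 6 (limma adjusted p = 0.306).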
